A study of Mus musculus with 19 samples.

Results

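Genes of the brain vasculature were followed through RNA-seq and ribosome profiling of mouse hippocampal slices. Of the 20436 genes in each count table, 10 were taken by symbol as genes of endothelial cells or of the mural cells that surround them: Cldn5, Cdh5, Pecam1, Esam, Flt1, Kdr, Tek, Epas1, Pdgfrb and Vtn. The set was chosen by symbol with earlier values of these libraries known, and Epas1 was selected on the values of its RNA and its ribosome-protected fragments (RPFs), which went apart after DHPG, so the DHPG values of the 10 genes are a description and not independent evidence. Acute slices came from wild-type male mice, littermates of a Tsc2 line bred on a C57BL/6J background, aged 28 to 42 days by the labels, with slices of several mice pooled per replicate, and were incubated for 5 min with 100 µM DHPG (dihydroxyphenylglycine, an agonist of group I metabotropic glutamate receptors) or with vehicle, here called basal. All slices were then exposed to cycloheximide at 100 µg/ml, which arrests ribosomes on mRNA, and the 19 libraries fall into basal RNA (n = 4), DHPG RNA (n = 5), basal RPF (n = 5) and DHPG RPF (n = 5). The DHPG RNA library of replicate 5 has no basal partner. The RPFs are the stretches of mRNA that a ribosome shields from nuclease, and the ratio of RPF to RNA is called translational efficiency (TE). RNA and RPFs of a replicate came from the same lysate, and the mice had been perfused through the heart before slicing.

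Brain endothelial cells form the wall of the capillary and seal it with tight and adherens junctions, the structural part of the blood-brain barrier. Pericytes and smooth muscle cells, together called mural cells, sit on the outer side of that wall in the basement membrane. Endothelial cells secrete PDGF-B and recruit pericytes that carry its receptor, while VEGF and the angiopoietins act on receptor tyrosine kinases of the endothelium. In bulk slices these cells are a small minority beside neurons and glia, and fewer cells of a type cannot be told apart from less RNA per cell.

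Total counts ran from 4870813 to 7793244 in the 9 RNA libraries and from 5692064 to 22092434 in the 10 RPF libraries. The 10 genes had counts above 0 in every library, and the lowest of the 190 values was a count of 9. Their summed level ran from 316.4 to 402.4 CPM (the count scaled to library size by the TMM method) in RNA and from 266.6 to 337.4 CPM in RPF. Most of it came from Epas1 and Vtn, with means of 189.1 and 60.9 CPM in basal RNA and 88.7 and 135.9 CPM in basal RPF. For comparison, 8 neuronal genes summed to between 5019 and 6533 CPM in RNA, and 5 blood cell genes summed to between 1.83 and 12.45 CPM. All 25 further endothelial genes and all 12 further pericyte genes in the tables were detected in every group.

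Levels between genes were compared as CPM per kilobase, over the transcript for RNA and over the coding sequence for RPF. In basal RNA the order was led by Vtn, which encodes the matrix protein vitronectin and is made by brain pericytes, at 34.9 ± 5.0 CPM per kb (SD, n = 4), and by Epas1, which encodes the oxygen-regulated subunit of a hypoxia-inducible factor, at 34.3 ± 3.5. The values of these 2 genes overlapped, and both stood apart from the rest. Cldn5, the main tight junction claudin of brain endothelium, followed at 12.3 ± 4.6, and Pdgfrb, the pericyte receptor for PDGF-B, at 5.47 ± 1.13 with no overlap between them. Esam, an adhesion molecule of endothelial tight junctions, stood at 3.35 ± 0.56 and did not overlap with Pdgfrb. Below it, Pecam1 at 2.41 ± 0.40, Flt1 at 1.95 ± 0.59, Cdh5 at 1.39 ± 0.32, Kdr at 1.14 ± 0.09 and Tek at 0.946 ± 0.237 each overlapped with the next gene in order. The median over 12455 genes tested was 9.63 CPM per kb, so only Vtn, Epas1 and Cldn5 were above it.

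The RPF order began the same way and differed lower down. Vtn was at 98.7 ± 8.9 CPM per kb (SD, n = 5), Epas1 at 34.6 ± 3.9, Cldn5 at 13.8 ± 0.6, Pdgfrb at 7.93 ± 1.03 and Esam at 4.55 ± 1.01, and none of these neighbours overlapped. Vtn and Epas1, which were level in RNA, were therefore apart in RPF. Cdh5, the adherens junction cadherin of endothelium, came next at 3.56 ± 0.62, with Flt1 at 3.49 ± 0.91, Kdr at 2.32 ± 0.56 and Pecam1, an endothelial adhesion receptor, at 1.66 ± 0.31, each overlapping with its neighbour. Tek, the angiopoietin receptor, was lowest at 0.553 ± 0.182 and did not overlap with Pecam1. The median over 12721 genes was 17.5 CPM per kb, and here Vtn and Epas1 alone were above it.

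**Figure D1:**
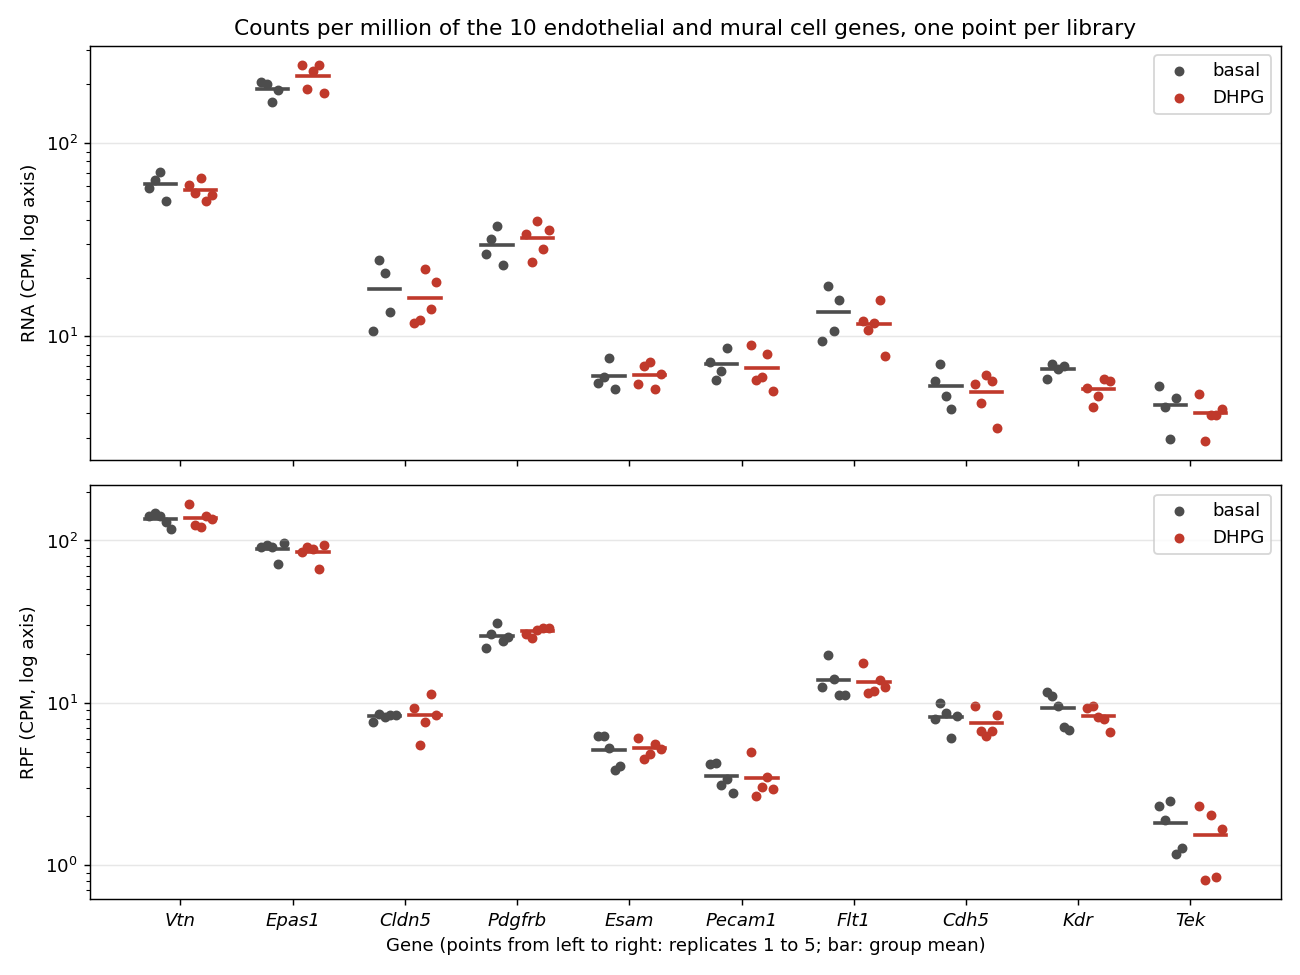
CPM of each of the 10 genes in every RNA library (upper panel) and RPF library (lower panel), on log axes and not per length, with basal in grey and DHPG in red. Points run from replicate 1 to 5 and bars are group means; basal and DHPG points of a gene overlap except for Kdr RNA, where the lowest basal library (6.045 CPM) and the highest DHPG library (6.042 CPM) nearly touch.

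The RPF to RNA ratio per length differed between members by more than 4-fold under basal conditions, from 2.93 for Vtn to 0.626 for Tek. Over 12227 genes the median ratio was 1.80, and 4 of the 10 genes (Vtn, Cdh5, Kdr and Flt1) were above it. The median over the 10 genes was 1.42, which is 0.339 below that of all genes on the log2 scale. Vtn had ratios of 3.05, 2.92, 2.54 and 3.27 in basal replicates 1 to 4. Tek had 0.594, 0.618, 1.15 and 0.363, all below every value of Vtn. Pecam1 had 0.789, 0.977, 0.658 and 0.543, so that all 4 replicates were also below those of Vtn, Cdh5 (2.27, 2.34, 2.91 and 2.38), Kdr (2.76, 2.22, 2.03 and 1.47) and Flt1 (2.27, 1.89, 2.27 and 1.265). The 4 genes of endothelial junctions and adhesion were thus spread widely, with Cdh5 at the 62.3 percentile of all genes, Esam (1.39) at 39.9, Cldn5 (1.17) at 33.2 and Pecam1 at 16.7. Among the receptor tyrosine kinases, Kdr and Flt1, both receptors for VEGF, were near the middle of all genes at the 55.7 and 51.8 percentiles, Pdgfrb (1.46) was at 41.9, and Tek was at 12.6. Epas1 had 0.946, 1.01, 1.20 and 0.820 and stood at the 26.3 percentile.

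**Figure D2:**
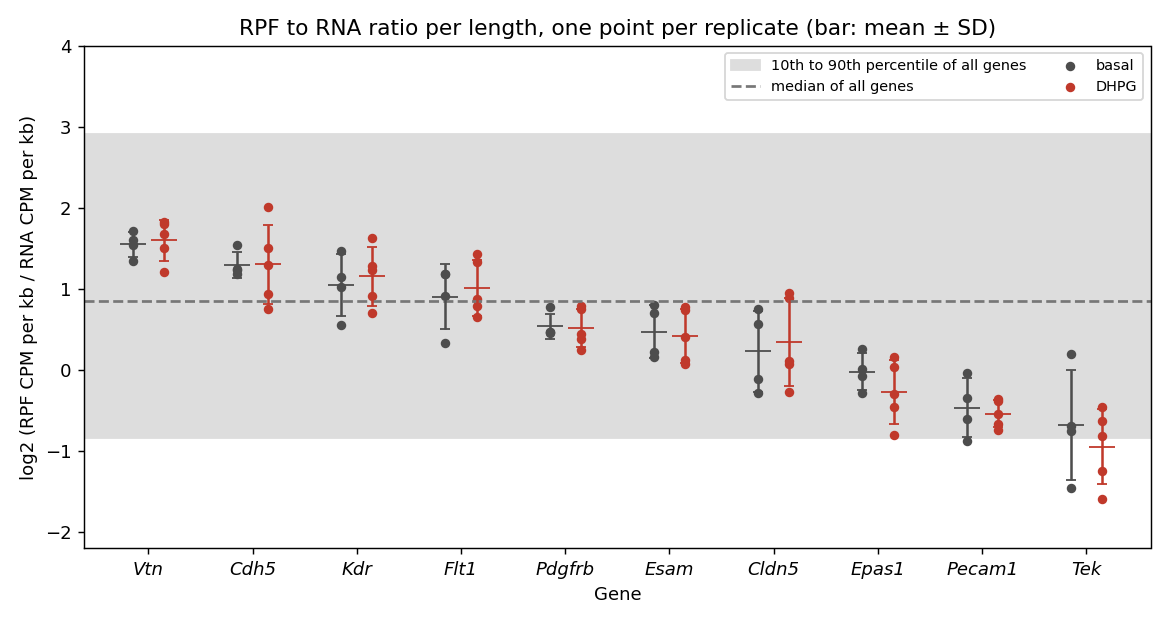
Log2 ratio of RPF CPM per kb of coding sequence to RNA CPM per kb of transcript for the 10 genes, 1 point per replicate, basal in grey (n = 4) and DHPG in red (n = 5), with mean ± SD. The dashed line is the basal median of 12227 genes (0.85) and the band their 10th to 90th percentile (-0.84 to 2.91); the order of the means from Vtn to Tek was the same in basal and DHPG slices.

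The start codon context is shown for the genes at both ends of the ratio, because it is the part of the mRNA where the ribosome begins. Each line gives the 9 bases before the start codon and the first 21 coding bases of the transcript with the longest coding sequence (GENCODE vM21, mm10), 5′ to 3′, with the start codon in capitals. Start codons lie at chr11:78499350-78499352 for Vtn, chr8:104112899-104112901 for Cdh5, chr5:75978166-75978168 for Kdr (minus strand), chr17:86754283-86754285 for Epas1, chr11:106715050-106715052 for Pecam1 (minus strand) and chr4:94739641-94739643 for Tek, on the plus strand where not marked. The upper 3 genes have the highest basal ratio and the lower 3 the lowest.
Vtn: aggcctgccATGgcacccctgaggcccttt
Cdh5: ccacgaaggATGcagaggctcacagagctg
Kdr: aggtgcaggATGgagagcaaggcgctgcta
Epas1: acggcgacaATGacagctgacaaggagaaa
Pecam1: gcagacaagATGctcctggctctgggactc
Tek: tggggaagtATGgactctttagccggctta

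All 6 sequences carry a purine (A or G) 3 bases before the start codon, as did 9 of the 10 genes and 86.1% of 11772 genes with an annotated start. G directly after the start codon was present in Vtn, Kdr and Tek among these 6, in 6 of the 10 genes and in 52.6% of all. Both features together were found in 5 of the 10 genes and in 45.2% of all, and Vtn and Tek, at opposite ends of the ratio, each had both. The stretch before the start codon was 618 bases long in Pecam1, 583 in Epas1, 341 in Tek, 290 in Kdr, 230 in Vtn and 127 in Cdh5, against a median of 186 over all genes with an annotated start. Pecam1 held 12 upstream ATG triplets in any frame and Tek 6, the highest numbers among the 10 genes, while Vtn held 3, Epas1 and Pdgfrb 1 each, and the other 5 genes none. At least 1 upstream ATG was present in 52.6% of all genes. These counts describe the annotated transcripts, and their part in the ratios was not tested.

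Between replicates of 1 treatment, most of these genes varied more in RPF than genes of like count. In RNA they were above such genes about as often as below. The SD of log2 CPM within a group had a median over the 10 genes of 0.26 in basal RNA, 0.27 in DHPG RNA, 0.26 in basal RPF and 0.23 in DHPG RPF. Each gene was set beside the genes within 2-fold of its mean count, and its SD was above their median in 11 of 20 combinations of gene and group in RNA and in 17 of 20 in RPF. Kdr, Esam and Vtn were below that median in both RNA groups. Tek was among the most variable, with basal RPF values of 2.33, 1.89, 2.50, 1.17 and 1.27 CPM in replicates 1 to 5 and DHPG values of 2.31, 0.805, 2.04, 0.848 and 1.68, from counts between 9 and 55 per library. Cldn5 had basal RPF values within a narrow span (7.61, 8.53, 8.22, 8.40 and 8.43 CPM) but basal RNA values of 10.6, 24.7, 21.1 and 13.4 CPM in replicates 1 to 4. In basal slices its RNA and its RPFs were thus both lowest in replicate 1 and highest in replicate 2, with a much wider span in RNA.

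The differences between DHPG and basal libraries varied with the replicate number. In replicate 2, all 10 genes had fewer RPFs in the DHPG library than in the basal library, with a median difference of -0.51 in log2 CPM, and 8 of 10 had less RNA, with a median of -0.46. In replicate 3 all 10 were again lower in RPF, by a smaller median of -0.18, while RNA had a median of 0.07 and 6 of 10 higher. In replicates 1, 4 and 5 the median RPF difference was 0.24, 0.14 and 0.12, with 6, 8 and 8 genes higher. The median over all genes was within 0.02 of 0 in each of these pairs. The basal RPF library of replicate 2 was above its group mean for 10 of 10 genes and the highest of its group for 6, and the DHPG RPF library of replicate 2 was the lowest of its group for 6. Flt1 shows the size of the swing: its basal RPFs were 12.6, 19.8, 14.1, 11.2 and 11.1 CPM and its DHPG RPFs 17.6, 11.5, 11.8, 13.8 and 12.5 CPM in replicates 1 to 5, so the pair differences ran from -0.78 in replicate 2 to 0.48 in replicate 1.

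**Figure D3:**
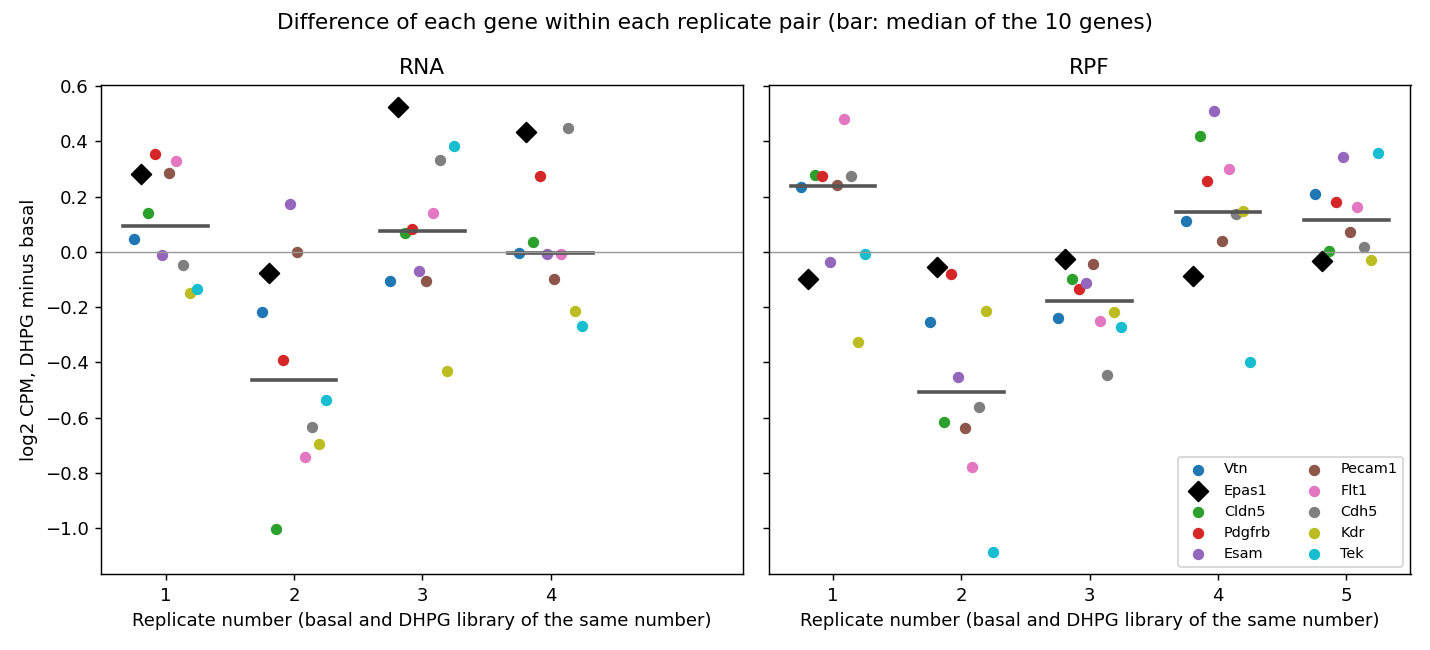
Difference in log2 CPM between the DHPG and the basal library of the same replicate number, 1 point per gene, in RNA (left, 4 pairs) and RPF (right, 5 pairs), with bars at the median of the 10 genes. The medians in RPF run from -0.51 in replicate 2 to 0.24 in replicate 1, while Epas1 (black diamonds) stays between -0.10 and -0.03 in RPF and lies at 0.28, -0.08, 0.52 and 0.43 in RNA.

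Lists of other cell types were followed through the same pairs. In RPF, 23 further endothelial genes had median differences of 0.11, -0.41, -0.04, 0.09 and 0.17 in replicates 1 to 5, with 20 of 23 lower in replicate 2. Further pericyte genes (10 tested) had 0.07, -0.19, 0.05, 0.19 and 0.06, and all 7 fibroblast genes were lower in replicate 2, with a median of -0.20. The low RPFs of replicate 2 were therefore seen in vascular and fibroblast genes that are not among the 10. In the same pair, oligodendrocyte genes were higher in 8 of 8 (median 0.22), and astrocyte (0.02) and microglia (0.06) genes had small medians. In replicates 1 and 4 the 10 genes had positive RPF medians (0.24 and 0.14). Microglia genes were higher there in 11 of 11 both times (medians 0.17 and 0.26). Oligodendrocyte genes were higher in 7 of 8 and 8 of 8 (0.17 and 0.22). Astrocyte genes differed less, with 6 and 7 of 10 higher (0.06 and 0.06). In replicate 5 the 10 genes were also positive (0.12), but 1 of 8 oligodendrocyte genes was higher (-0.10). Microglia and astrocyte medians were 0.05 and 0.07 in that pair. In RNA of replicate 2 the further endothelial genes had a median of 0.00, with 12 of 22 higher, and the further pericyte genes of -0.25, so the RNA of the other endothelial genes did not share the low value of the 10 genes. The part that cell content of the slices had in these differences was not tested.

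**Figure D4:**
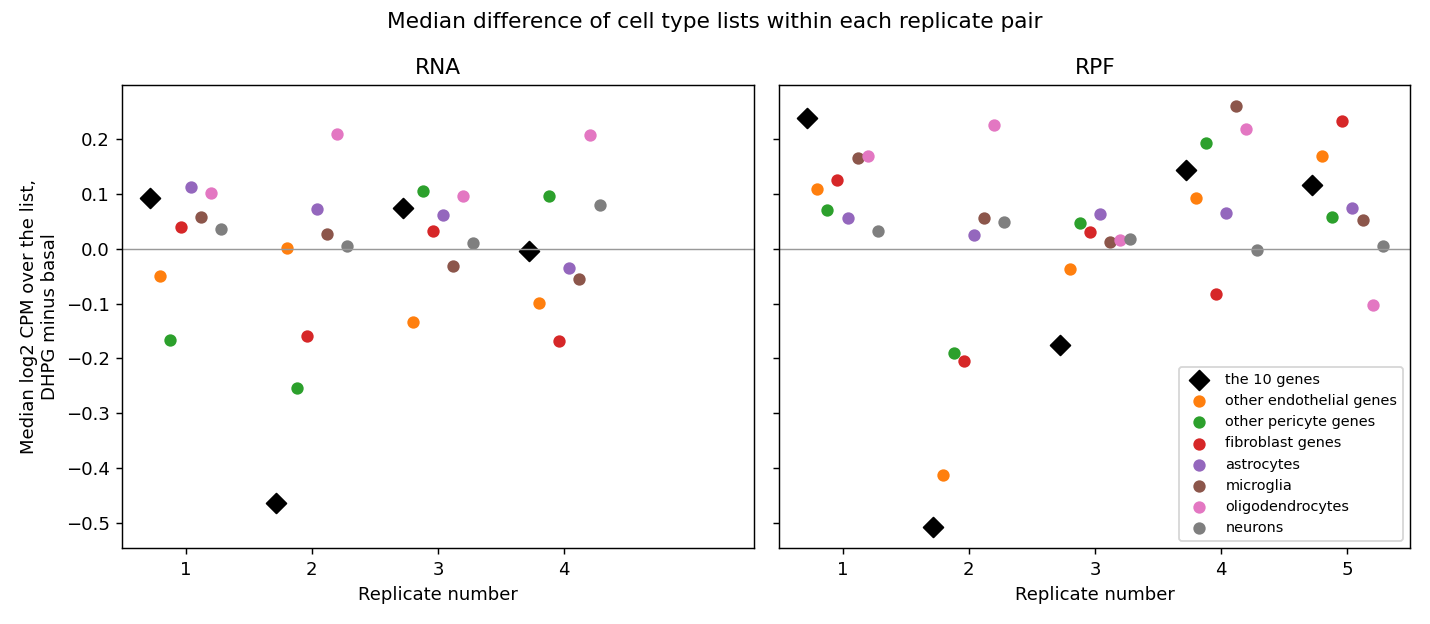
Median difference in log2 CPM between the DHPG and basal library of each replicate number over the 10 genes (black diamonds) and 7 lists of cell type genes, in RNA (left) and RPF (right). In RPF the 10 genes and the further endothelial genes are lowest in replicate 2 (-0.51 and -0.41) and above 0 in replicates 1, 4 and 5, whereas in RNA the further endothelial genes are at 0.00 in replicate 2.

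The comparison of DHPG with basal slices asked which RNAs and RPFs responded within minutes to receptor activation. The count tables gave no call among the 10 genes. None passed the threshold in RNA (adjusted p of 0.01), where 0.00773% of 12935 genes did, nor in RPF (0.05), where 0.22% of 13208 genes did, nor in TE (0.05), where 0.0% of 12691 genes did. The fit was edgeR's quasi-likelihood test with a block for replicate number, in which 1 of the 10 genes had an unadjusted p under 0.05 in each of RNA (Epas1), RPF (Cdh5) and TE (Epas1), against 8.017%, 10.76% and 6.769% of all genes tested. DESeq2 with the same block also passed 0 of 10 in RNA and in RPF, and limma passed 0 of 10 in TE. In RPF the DHPG and basal libraries overlapped for all 10 genes. In RNA 5 genes were higher and 5 lower with DHPG, with a median log2 fold change of -0.02 (all genes 0.01). In RPF 1 gene, Pdgfrb, was higher and 9 were lower, with a median of -0.09 (all genes 0.00). That count rested on replicate 2: without it, 6 of the 10 genes were higher in RPF and the median was 0.05, and the median of the further endothelial genes went from -0.05 to 0.05. With DESeq2, 3 of 10 were higher in RPF. In RNA the median without replicate 2 was 0.06, with 6 of 10 higher.

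Of the junction and adhesion genes, Cldn5 (chr16:18776847-18778262, 1 exon) differed by -0.17 ± 0.15 in RNA (log2 fold change ± SE, as in the sentences that follow) and -0.05 ± 0.11 in RPF, Pecam1 (chr11:106654217-106750628) by 0.03 ± 0.16 and -0.12 ± 0.15, and Esam (chr9:37528078-37538319) by 0.01 ± 0.17 and -0.02 ± 0.13. Cldn5 RNA was 11.7, 12.2, 22.2, 13.8 and 19.2 CPM in DHPG replicates 1 to 5, inside the basal span given above, and Cldn5 RPFs were 9.26, 5.504, 7.67, 11.3 and 8.46 CPM with DHPG, a wider span than in basal slices. Pecam1 RPFs were 4.19, 4.26, 3.13, 3.38 and 2.78 CPM in basal and 4.99, 2.69, 3.04, 3.49 and 2.93 CPM in DHPG slices, where replicate 1 was highest and replicate 2 lowest. Esam RPFs were 6.21, 6.21, 5.27, 3.85 and 4.06 CPM in basal and 6.05, 4.497, 4.86, 5.56 and 5.19 CPM in DHPG slices, so that replicates 4 and 5 were lower than the others in basal slices only.

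The adherens junction gene Cdh5 (chr8:104101625-104144511) had 0.06 ± 0.20 in RNA and -0.22 ± 0.11 in RPF, where its basal values were 7.92, 9.99, 8.63, 6.07 and 8.27 CPM and its DHPG values 9.62, 6.71, 6.29, 6.69 and 8.38 CPM in replicates 1 to 5. The groups overlapped, Cdh5 was lower in 2 of 5 pairs, and its fitted RPF value was -0.10 without replicate 2. Cdh5 overlaps at its 5′ end with an annotated antisense gene, Gm29682, which has no row in the count tables. Epas1 overlaps with an annotated gene on its own strand, AC096777.1 (chr17:86773270-86774648), which has no row there either.

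Of the receptors, Kdr (chr5:75932827-75978458) was the gene whose RNA groups did not overlap. Kdr RNA was 6.045, 7.21, 6.79 and 7.06 CPM in basal replicates 1 to 4 and 5.42, 4.33, 4.95, 6.042 and 5.88 CPM in DHPG replicates 1 to 5, from counts of 21 to 50 per library. All 5 DHPG libraries were below all 4 basal libraries, though by less than 0.01 CPM between the nearest ones, and 0.302% of the RNAs tested had all DHPG libraries lower. The fitted difference was -0.36 ± 0.18 (adjusted p = 0.629), and Kdr was lower in 4 of 4 pairs. Kdr RPFs were 11.6, 11.1, 9.53, 7.12 and 6.76 CPM in basal and 9.26, 9.53, 8.17, 7.92 and 6.62 CPM in DHPG slices. They were lower in 4 of 5 pairs, at -0.15 ± 0.09, and the groups overlapped. Flt1 (chr5:147561604-147726011) had -0.06 ± 0.15 in RNA and -0.14 ± 0.10 in RPF, and its RPF value was 0.09 without replicate 2. Flt1 RNA was 9.48, 18.1, 10.7 and 15.4 CPM in basal and 12.0, 10.7, 11.8, 15.3 and 7.90 CPM in DHPG replicates, again highest in basal replicate 2. Tek (chr4:94739289-94874976) had -0.14 ± 0.21 in RNA and -0.32 ± 0.21 in RPF, the lowest RPF value of the 10, which was -0.11 without replicate 2.

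Both mural genes had RPF differences near 0. Pdgfrb (chr18:61045150-61085061) had 0.10 ± 0.11 in RNA and 0.05 ± 0.06 in RPF, and its DHPG RPFs lay between 25.1 and 29.0 CPM, within the basal range of 21.9 to 30.9. Pdgfrb RNA was 26.5, 31.7, 37.2 and 23.3 CPM in basal and 33.9, 24.1, 39.4, 28.2 and 35.5 CPM in DHPG replicates, higher with DHPG in 3 of 4 pairs and lower in replicate 2. Vtn (chr11:78499091-78502324, 8 exons) had -0.07 ± 0.08 in RNA and -0.01 ± 0.05 in RPF. Its RPFs were 141.9, 147.7, 142.4, 130.2 and 117.3 CPM in basal replicates 1 to 5 and 167.0, 124.0, 120.7, 140.5 and 135.7 CPM with DHPG, which overlapped over most of their range.

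Epas1 (chr17:86753700-86833410, 16 exons) was the gene with RNA and RPF apart. Its RNA was 206.4, 200.3, 163.0 and 186.9 CPM in basal replicates 1 to 4 and 251.1, 189.8, 234.5, 252.8 and 181.1 CPM in DHPG replicates 1 to 5. The means were 189.1 ± 19.2 (SD, n = 4) and 221.9 ± 34.1 (SD, n = 5), and the groups overlapped: DHPG replicates 1, 3 and 4 were above every basal library, while replicates 2 and 5 were not. Its RPFs were 90.8, 94.3, 90.7, 71.2 and 96.4 CPM in basal slices and 84.8, 90.7, 89.1, 67.1 and 94.2 CPM with DHPG. Each DHPG library was slightly below its own basal partner, by 0.03 to 0.10 in log2 CPM, although basal and DHPG ranges overlapped almost wholly. The pair differences of Epas1 RPFs spanned 0.073, from counts of 476 to 1998 per library, and those of the other 9 genes spanned 0.409 to 1.445, most of them from lower counts. Vtn, with counts of 914 to 3136, spanned 0.488. Epas1 was selected on these values, so the narrow span is a description. In replicate 2 Epas1 RPFs were at -0.05, where the median of the 10 genes was -0.51 and Pdgfrb was also near 0, at -0.08. Epas1 RNA was at -0.08 in that pair, above the median of -0.46. It was still the lowest of the Epas1 RNA pairs, with 0.28, 0.52 and 0.43 in replicates 1, 3 and 4. These RNA pair differences spanned 0.601, more than those of 70.7% of genes. Esam RNA (0.17) and Pecam1 RNA (0.0003) were not lower in replicate 2, and RNA of the other 8 genes was.

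The fitted values were 0.30 ± 0.08 in RNA, -0.05 ± 0.04 in RPF and -0.36 ± 0.09 for the difference between RPF and RNA, which takes in the same RNA libraries and is no separate evidence. In single replicates, the ratio of RPF to RNA with DHPG relative to basal was -0.38, 0.02, -0.55 and -0.52 (log2) in replicates 1 to 4, with replicate 2 the exception. The RPF value of Epas1 ran from -0.06 to -0.05 whichever replicate number was left out, and the RNA value from 0.22 to 0.41. Without replicate 2, Epas1 was 1 of 10 genes past the threshold in RNA (0.169% of all genes) and in TE (0.0629%). It was also past it in RNA when counts were adjusted with ComBat before DESeq2, where 3.1% of the genes given an adjusted p were called, and in TE with no filter on low counts (0.0245%). Epas1 had been picked out for this difference, so these calls add no support to it.

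**Figure D5:**
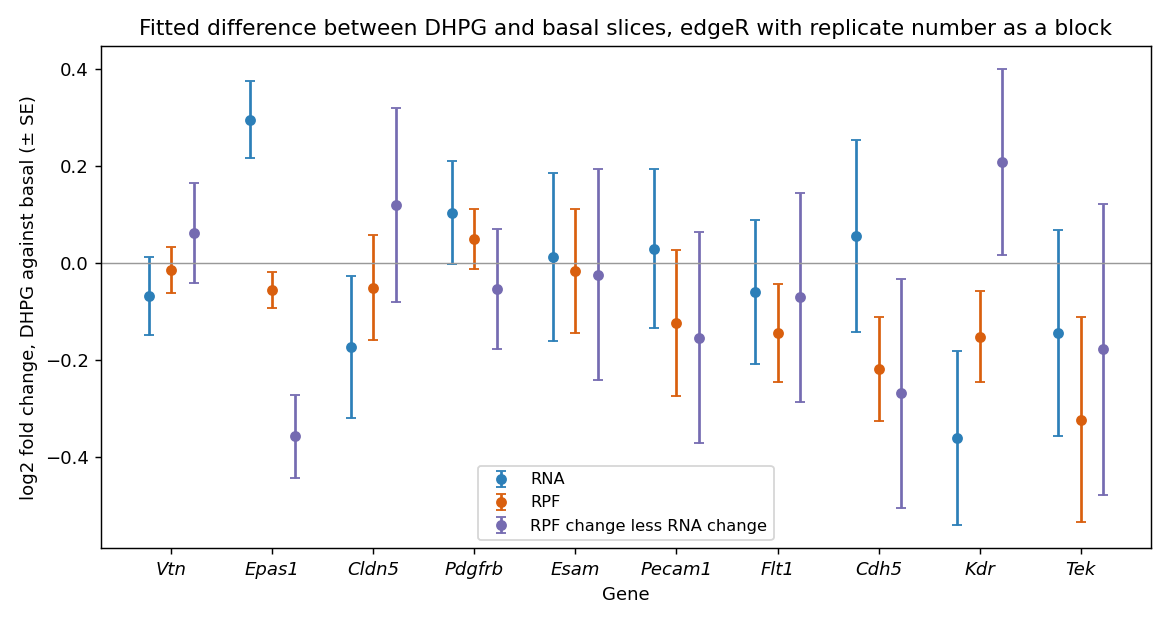
Fitted log2 fold change of DHPG against basal with its standard error for the 10 genes, for RNA (blue), RPF (orange) and their difference (purple), from edgeR with replicate number as a block. Epas1 has 0.30 in RNA, -0.05 in RPF and -0.36 in their difference, and the values of the other 9 genes lie between -0.36 and 0.21 with standard errors up to 0.30.

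Ligands and partner receptors of the same pathways were examined from lists. Of 17 genes of VEGF, angiopoietin and PDGF signalling, 13 were tested in RNA and 15 in RPF, and 0 passed in either direction, with medians of 0.07 and 0.00. In edgeR 1 RNA and 2 RPFs of this list had an unadjusted p under 0.05. Vegfa, the ligand of Kdr and Flt1, had the highest RPF value at 0.17 ± 0.06 (adjusted p = 0.226), with 24.7 ± 3.3 CPM in basal and 28.1 ± 2.7 CPM in DHPG slices (SD, n = 5 each). Angpt2, a ligand of Tek, had the lowest at -0.16 ± 0.21. In RNA the range ran from Angpt1 (-0.14 ± 0.27), another ligand of Tek, to Flt4, a VEGF receptor best known from lymphatic vessels (0.39 ± 0.37), which stood at 1.46 CPM in basal slices.

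Genes of the hypoxia-inducible factor pathway, in which Epas1 acts, gave 0 calls among 20 RNAs and 21 RPFs tested, with medians of 0.00 in both, and 0 RNAs and 4 RPFs with an unadjusted p under 0.05 in edgeR. Vegfa again had the highest value in both, at 0.11 ± 0.09 in RNA, and the lowest were Ero1l, an oxidase of the endoplasmic reticulum, in RNA (-0.14 ± 0.10) and Egln2, a prolyl hydroxylase that marks hypoxia-inducible factors for degradation, in RPF (-0.21 ± 0.07, adjusted p = 0.267).

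Further junction proteins (14 RNAs and 15 RPFs tested) and genes of the basement membrane and its integrins (18 of each) also gave 0 calls, with 1 RNA of each list and 1 and 3 RPFs at an unadjusted p under 0.05 in edgeR. Cldn1, a claudin, had the lowest RNA value of the junction list at -0.63 ± 0.29 (adjusted p = 0.599) and Tjp3, a scaffold of tight junctions, the highest at 0.24 ± 0.36. Tjp3 was lowest in RPF (-0.35 ± 0.29), where F11r, a junctional adhesion molecule, was highest (0.14 ± 0.09). In the basement membrane list 16 of 18 RPFs were higher with DHPG (51.44% of all genes tested), with a median of 0.06. This varied with the pair, with 15, 7, 6, 12 and 17 of 18 higher in replicates 1 to 5. The nidogens, which link laminin to collagen, marked its range: Nid1 was highest in RNA (0.36 ± 0.14) and Nid2 highest in RPF (0.18 ± 0.10), while Nid2 was lowest in RNA (-0.15 ± 0.20) and Fn1, fibronectin, lowest in RPF (-0.11 ± 0.05).

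Further markers of the vessel wall gave 0 calls too. An unadjusted p under 0.05 in edgeR was found for 3 RNAs and 4 RPFs of the further endothelial genes, 0 and 2 of the pericyte genes, and 0 of the smooth muscle and fibroblast genes. Among further endothelial genes 9 of 22 were higher in RNA and 8 of 23 in RPF, from Abcb1a, an efflux transporter of the blood-brain barrier (-0.44 ± 0.19 in RNA), to Robo4, an endothelial guidance receptor (0.42 ± 0.29 in RNA). In RPF the range ran from Foxq1, a transcription factor (-0.53 ± 0.24), to Nos3, the endothelial nitric oxide synthase (0.16 ± 0.19). Pericyte genes had medians of -0.05 in RNA and -0.07 in RPF (10 tested in each). The lowest was Anpep, an aminopeptidase, in RNA (-0.54 ± 0.33) and Tbx18, a transcription factor, in RPF (-0.27 ± 0.29), and the highest in both was Cd248 (0.16 ± 0.24 and 0.32 ± 0.15). Few smooth muscle genes were tested (3 RNAs and 4 RPFs), and Tagln and Myh11 were at 1.42 and 2.16 CPM in basal RNA. Their values ran from -0.52 ± 0.34 for Myh11 to 0.07 ± 0.38 for Tagln in RNA and from -0.23 ± 0.16 for Tagln to 0.04 ± 0.27 for Des in RPF. Fibroblast genes (7 of each) had medians of -0.06 and -0.04, with Col3a1 lowest (-0.15 ± 0.11) and Lum highest (0.21 ± 0.30) in RNA, and Slc22a6 lowest (-0.13 ± 0.11) and Col1a1 highest (0.09 ± 0.05) in RPF.

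Among glial lists, 1 gene passed: Mag, a myelin protein, was 0.16 ± 0.04 higher in RPF with DHPG (adjusted p = 0.0337), a call that changed with the fit. It did not pass without replicate 1, 2 or 4 (adjusted p of 0.267, 0.329 and 0.202), in DESeq2 with the replicate block (0.198) or in edgeR with no block (1). It passed without replicate 3 or 5 (0.00126 and 0.0099), with no filter on low counts (0.000131) and in DESeq2 after ComBat (0.00234). Mag also passed in edgeR with DESeq2's size factors (0.0334) and with at least 10 counts in every library (0.0302). None of 8 oligodendrocyte RNAs passed. All 10 astrocyte and all 11 microglia RPFs were above 0 with none past the threshold, at medians of 0.06 and 0.10. In RNA the same lists went both ways, with 7 of 10 astrocyte genes (median 0.04) and 6 of 11 microglia genes (0.00) higher. An unadjusted p under 0.05 in edgeR was found in RPF for 4 of 10 astrocyte, 5 of 11 microglia and 5 of 8 oligodendrocyte genes. In RNA it was found for 2, 0 and 5 of them. Neuronal genes had 3 of 8 in RPF and 2 of 8 in RNA, and oligodendrocyte precursor genes 2 of 5 and 1 of 5. Over all genes tested the shares were 10.76% in RPF and 8.017% in RNA. Oligodendrocyte precursor genes had medians of 0.17 in RNA and 0.09 in RPF, neuronal genes 0.03 and 0.02, and choroid plexus genes (2 RNAs and 3 RPFs tested) 0.15 and 0.13. Blood cell (3 and 1 tested) and ependymal genes (1 and 2) had 0 calls.

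The genes whose profile over the libraries was most like the median of the 10 genes were found by the root mean square difference of centred log2 CPM. In RNA (9 libraries) these were Flii, Abcg1, Sec24c, Cfap20 and Ddx25, at 0.051 to 0.060 where the median gene was at 0.252 and a gene with no variation would be at 0.119. In RPF (10 libraries) they were H2-D1, Efemp1, Mfsd7b, Klk8 and Usp16, at 0.067 to 0.104 where the median gene was at 0.232 and a gene with no variation would be at 0.178. None of these 10 genes stood in a list of vascular or other cell type genes, and the profiles share library depth and replicate number.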

How the data were processed

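The authors trimmed adapters, discarded reads of rRNA and tRNA, kept reads mapped uniquely to mm10, and dropped PCR duplicates by molecular identifiers. They deposited RSEM's expected counts as whole numbers, with no normalization. RNA was counted on whole transcripts and RPFs on coding sequences without 30 bases at each end, so ribosomes near start and stop codons are not included. The strandedness of the counts is not given in the sources used here. Columns of replicates 6 to 8 (12 in all) were not used.

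The 10 genes and all lists were chosen with earlier results of these data known. The paper counts the pools of mice as biological replicates, so p-values measure the spread between these pooled libraries and not between single mice. Calculations used R 4.3.3, edgeR 4.0.16 (TMM, filterByExpr, quasi-likelihood F test, Benjamini-Hochberg adjustment over all genes tested), limma 3.58.1, DESeq2 1.42.0 and sva 3.50.0. Replicate number was a block because the study corrected its counts by batch, and because same-numbered libraries deviated together (correlations of 0.308 to 0.741 in RNA and 0.259 to 0.523 in RPF). DHPG RNA replicate 5 has no basal partner, enters the fit without informing the difference, and was left out of ComBat. TE was the interaction of library type and treatment over 19 libraries. Log2 CPM used a prior count of 2. Ratios used basal replicates 1 to 4. Lengths, loci and sequences are from GENCODE vM21. Genes named are the 10, every list gene past a threshold, the highest and lowest of each list per assay (written out for vascular and pathway lists), and the 5 nearest profiles. The steps were tested on simulated data. The alternatives were DESeq2's size factors, other filters, no block, DESeq2, ComBat before DESeq2, limma for TE, other lengths and scalings for ratios, and each replicate number left out.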

Additional observations from a re-analysis of the deposited data

Results flagged for a closer look

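In 60 groups of 4 or 5 values (each of the 10 genes in each library group, and its RPF to RNA ratio), 1 replicate far from the others was found in 2, where chance alone gives about 3 (1 in 20). Epas1 had 71.2 CPM in the basal RPF library of replicate 4, and the other 4 basal RPF libraries lay between 90.7 and 96.4 CPM. The DHPG RPF library of replicate 4 was also the lowest of its group for Epas1, at 67.1 CPM. Pdgfrb had a basal log2 ratio of RPF to RNA per length of 0.773 in replicate 4, and the other 3 replicates lay between 0.456 and 0.475.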

How the results depend on the processing

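For the 10 genes, the number past the threshold stayed at 0 in RPF under each alternative run (DESeq2 and ComBat included). It became 1 (Epas1) in RNA after ComBat with DESeq2 and in TE with no filter on low counts, and leaving out replicate numbers gave 0 to 1 in RNA and in TE, the 1 being without replicate 2. After ComBat, DESeq2 gave an adjusted p to 3 of the 10 genes in RNA and 2 in RPF. With no replicate block, 0 of 10 passed, and Pecam1 (-0.050) and Cdh5 (-0.082) in RNA, Vtn in RPF (0.012) and Flt1 in TE (0.12) changed sign. Vtn RPF was 0.0018 after ComBat, and Flt1 TE was 0.0079 with limma. Leaving out replicate numbers changed signs within these ranges: in RNA, Cldn5 -0.28 to 0.080, Pecam1 -0.089 to 0.085, Flt1 -0.19 to 0.14, Cdh5 -0.092 to 0.25 and Esam -0.032 to 0.048; in RPF, Cldn5 -0.16 to 0.10, Pecam1 -0.18 to 0.054, Flt1 -0.23 to 0.087, Vtn -0.069 to 0.054 and Esam -0.11 to 0.14; in TE, Pecam1 -0.24 to 0.016, Flt1 -0.13 to 0.037, Pdgfrb -0.14 to 0.015 and Esam -0.12 to 0.17. The cause was not tested.

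Over all genes, the call count of 1 in RNA became 7 with no filter, 0 with at least 10 counts in every library, with no replicate block or with DESeq2, 198 after ComBat, and 0 to 22 without a replicate number. The 29 RPF calls became 96 with no filter, 0 with no replicate block, 427 after ComBat, and 3 to 71 without a replicate number, and the 0 TE calls became 4 with no filter and up to 8 without a replicate number. The median ratio of the 10 genes less that of all genes ran from -0.37 to -0.23 over its alternatives. RNA counts of 14 to 70 per library in Tek, Kdr, Cdh5, Esam and Pecam1 limit which differences were detectable in them. With at least 10 counts in every library, Tek RPF and the blood cell list could not be fitted, nor could blood cell RPFs without replicate 2 or 3.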
